A study of Mus musculus with 6 samples.

Results

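The cytochromes P450 of families 1 to 3 were taken as every gene whose platform symbol begins with Cyp, a family number from 1 to 3, a subfamily letter and a number. The array measured 59 such genes of the 22180 genes that had a probe set with a single symbol. They belong to 16 subfamilies, of which Cyp2c held 15 members, Cyp2d 10, Cyp2j 7, Cyp3a 7, Cyp2b 5, Cyp2a 4 and Cyp1a 2, with 1 member in each of the other 9. The reference annotation lists 56 of the members as protein coding and 3 (Cyp2c53-ps, Cyp2d13 and Cyp2d37-ps) as pseudogenes. Probe sets shared by Cyp3a41a, Cyp3a41b, Cyp3a11 and Cyp3a44, or by Cyp2c67 and Cyp2c68, carry several symbols and were not counted as members.

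The livers came from CREB-H knockout mice (allele Creb3l3tm1.1Sad/J) 8 weeks old and kept on a normal diet. One group received an adeno-associated virus (AAV) aimed at the liver that carried CREB-H-ΔTC, the active form of this transcription factor, by intraperitoneal injection (AAV-CREB-H-ΔTC, n = 3). The controls received the same kind of virus with green fluorescent protein (AAV-GFP, n = 3). All mice of both groups therefore lacked their own CREB-H and carried a virus, and no group with intact CREB-H is part of the comparison. Livers were taken 2 weeks after injection, and total RNA of each was hybridised to 1 array. The labels give no sex, and whole liver was used, so fewer cells of a type and less RNA per cell cannot be told apart.

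Cytochromes P450 are haem enzymes of the endoplasmic reticulum that oxidise drugs, toxins, steroids, bile acids and fatty acids with electrons from P450 oxidoreductase. Hepatocytes hold most of these enzymes, chiefly those around the central vein. The aryl hydrocarbon receptor drives the Cyp1 genes, and the nuclear receptors CAR and PXR drive Cyp2b and Cyp3a genes. In mouse liver the pattern of growth hormone secretion sets a strong difference between the sexes in several members of Cyp2a, Cyp2b, Cyp2c, Cyp2d and Cyp3a.

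Signals are given as deposited, on a log2 scale, so that a difference of 1 is 2-fold. Array medians lay between 4.98 and 5.01. The targeted gene, Creb3l3, had 6.73, 7.25 and 7.58 in AAV-CREB-H-ΔTC livers, against 6.55, 5.93 and 6.40 in AAV-GFP livers, a difference of 0.89 (1.17 within replicate 3 and 0.75 within replicates 1 and 2; SE 0.25, adjusted p = 0.647 by limma, Benjamini-Hochberg adjusted across the 41345 probe sets). The groups did not overlap, but the probe set was not shown to lie inside or outside the deleted part. Replicate 3 of both groups stood apart from replicates 1 and 2. Its mean signal of 3 Y-linked genes was 7.67 in the AAV-CREB-H-ΔTC liver and 7.83 in the AAV-GFP liver, against 3.15 to 3.39 on the other 4 arrays. Xist was lower on replicate 3 by 7.05 (adjusted p = 7.74e-05 by limma). High Y-linked signal with low Xist is the pattern of male tissue, and the reverse that of female tissue, but the labels give no sex. Differences between the groups are therefore given over all arrays, within replicate 3 (1 array each) and within replicates 1 and 2 (2 arrays each); where 2 values follow an SE unnamed, they are these last 2 in that order. Of the 4 measured hepatocyte markers none passed the group test, and their median difference was -0.01. Of 8 measured markers of hepatocytes around the central vein, none of them a member, 7 were lower and none passed, with a median of -0.12 (-0.41 within replicate 3 and -0.02 within replicates 1 and 2). Their mean signal ran from 8.81 to 8.96 in AAV-CREB-H-ΔTC livers and from 8.83 to 9.20 in AAV-GFP livers. All 5 Kupffer cell markers were higher in AAV-CREB-H-ΔTC livers, by a median of 0.40, and none passed. Their mean signal ran from 8.44 to 9.32 in AAV-CREB-H-ΔTC livers and from 8.00 to 9.02 in AAV-GFP livers, lowest on replicate 3 of each. The part of either marker list in the results was not tested.

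Drug-metabolising P450 genes did not pass the test for a difference between AAV-CREB-H-ΔTC and AAV-GFP livers. None of the 59 members had an adjusted p under 0.05 in limma, where 0.00484% of all probe sets did (0.00242% higher and 0.00242% lower), and the lowest adjusted p of a member was 0.613, for Cyp1a1. At an unadjusted p under 0.05 there were 5 members, or 8.47%, beside 6.89% of all probe sets. Of these, Cyp1a1 and Cyp3a59 were higher in AAV-CREB-H-ΔTC livers (3.39% of members, beside 2.93%), and Cyp2c54, Cyp2d22 and Cyp2j6 were lower (5.08%, beside 3.97%). With the replicate number as a block the unadjusted count was 12 (20.3%, beside 7.8% of all probe sets in that fit), and the adjusted count stayed at 0. The unadjusted count also depended on single arrays. It was 1 without AAV-GFP replicate 2 (1.69%, beside 6.09%), 3 without AAV-GFP replicate 1 (5.08%, beside 5.74%) and 9 without AAV-GFP replicate 3 (15.3%, beside 7.63%).

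Over all arrays 22 were higher and 37 lower, with a median difference of -0.08, beside -0.01 for all probe sets. Within replicate 3 the median was -0.22, and within replicates 1 and 2 it was 0.02. For 26 of the 59 the sign of the difference in replicate 3 was opposite to that in replicates 1 and 2 (44.1%, beside 47.4% of all probe sets). Within replicate 3, 9 members were lower by 2-fold or more (15.3%, beside 1.69% of all probe sets) and 3 were higher by as much (5.08%, beside 1.46%). Within replicates 1 and 2, Cyp3a59 alone was higher by 2-fold or more, beside 0.397% of all probe sets, and no member was lower by as much, beside 0.583%. In those 4 arrays 13 members had an unadjusted p under 0.05 (22.0%, beside 8.07%) and none an adjusted one, as for all probe sets (0%).

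**Figure D1:**
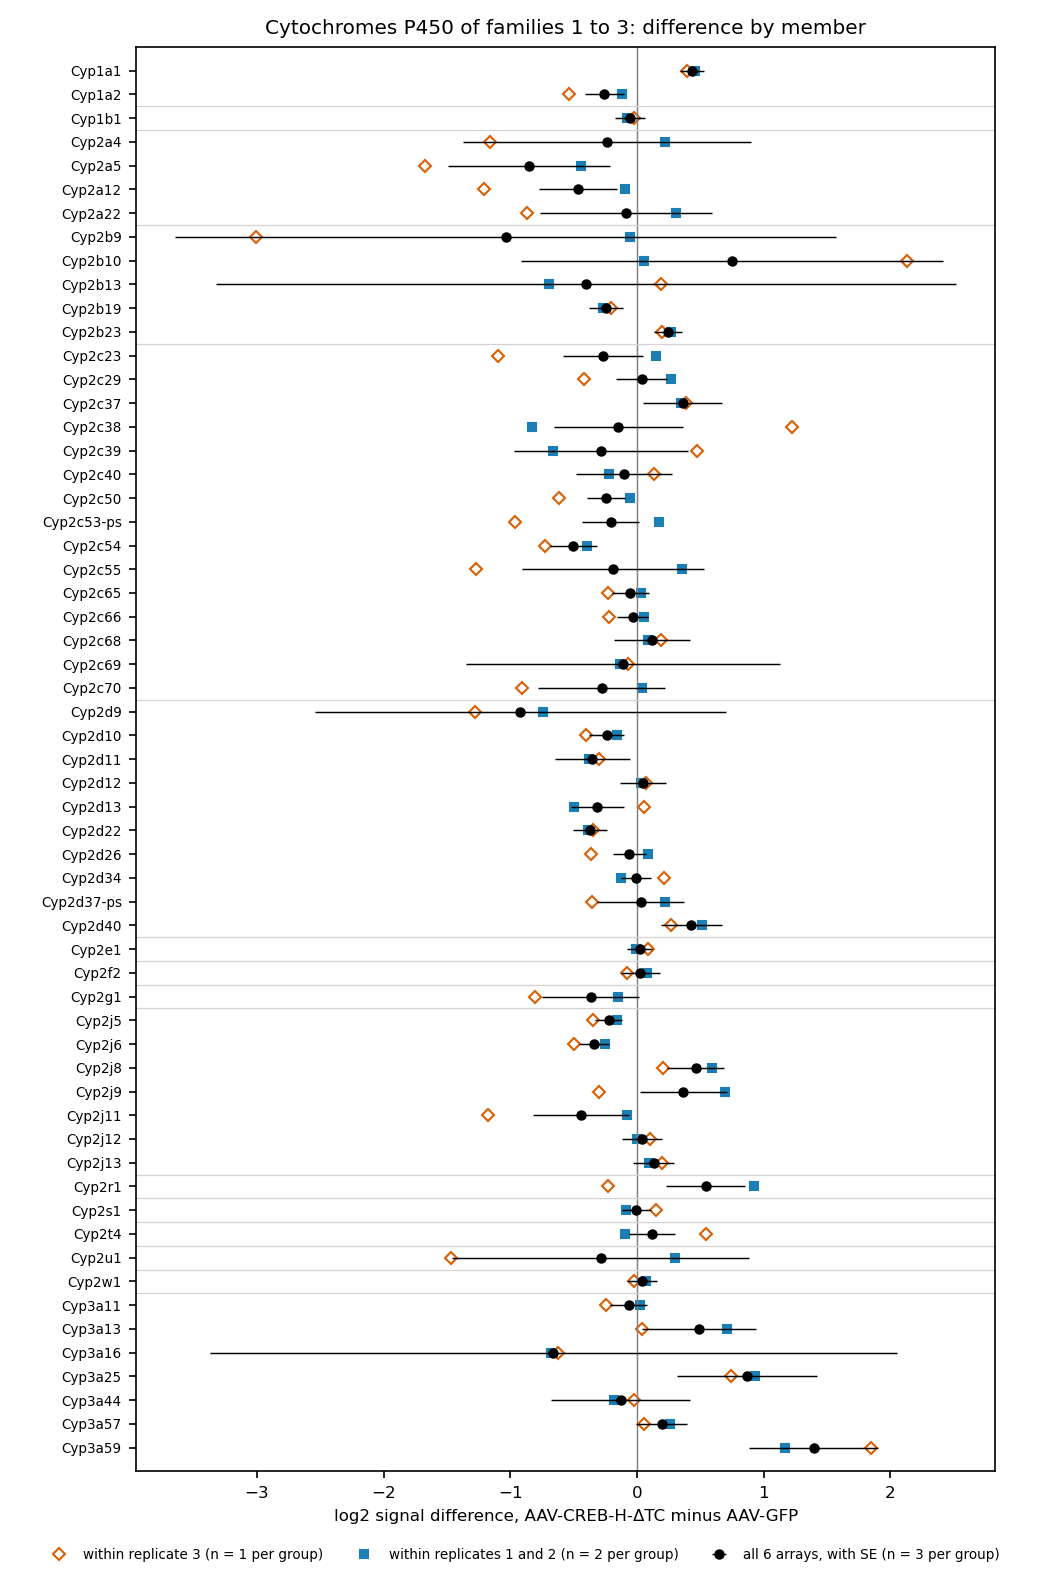
Difference in log2 signal, AAV-CREB-H-ΔTC minus AAV-GFP, for all 59 members ordered by subfamily. Black points show all 6 arrays with the SE, open diamonds replicate 3 and squares replicates 1 and 2; bars are widest for Cyp2b9, Cyp2b13 and Cyp3a16, whose replicate 3 arrays stood apart.

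Between the groups 9 members did not overlap (15.3%, beside 12.3% of all probe sets), 3 of them higher (beside 5.23%) and 6 lower (beside 7.1%) in AAV-CREB-H-ΔTC livers. The higher ones were Cyp3a59, Cyp1a1 and Cyp2b23, and the lower ones were Cyp2c50, Cyp2c54, Cyp2d10, Cyp2d22, Cyp2j5 and Cyp2j6. Of these, Cyp2b23 lay below the lower quartile of all probe sets on every array. An exact permutation test over the arrays gave p = 0.1 for each, the smallest that 3 against 3 allows.

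**Figure D2:**
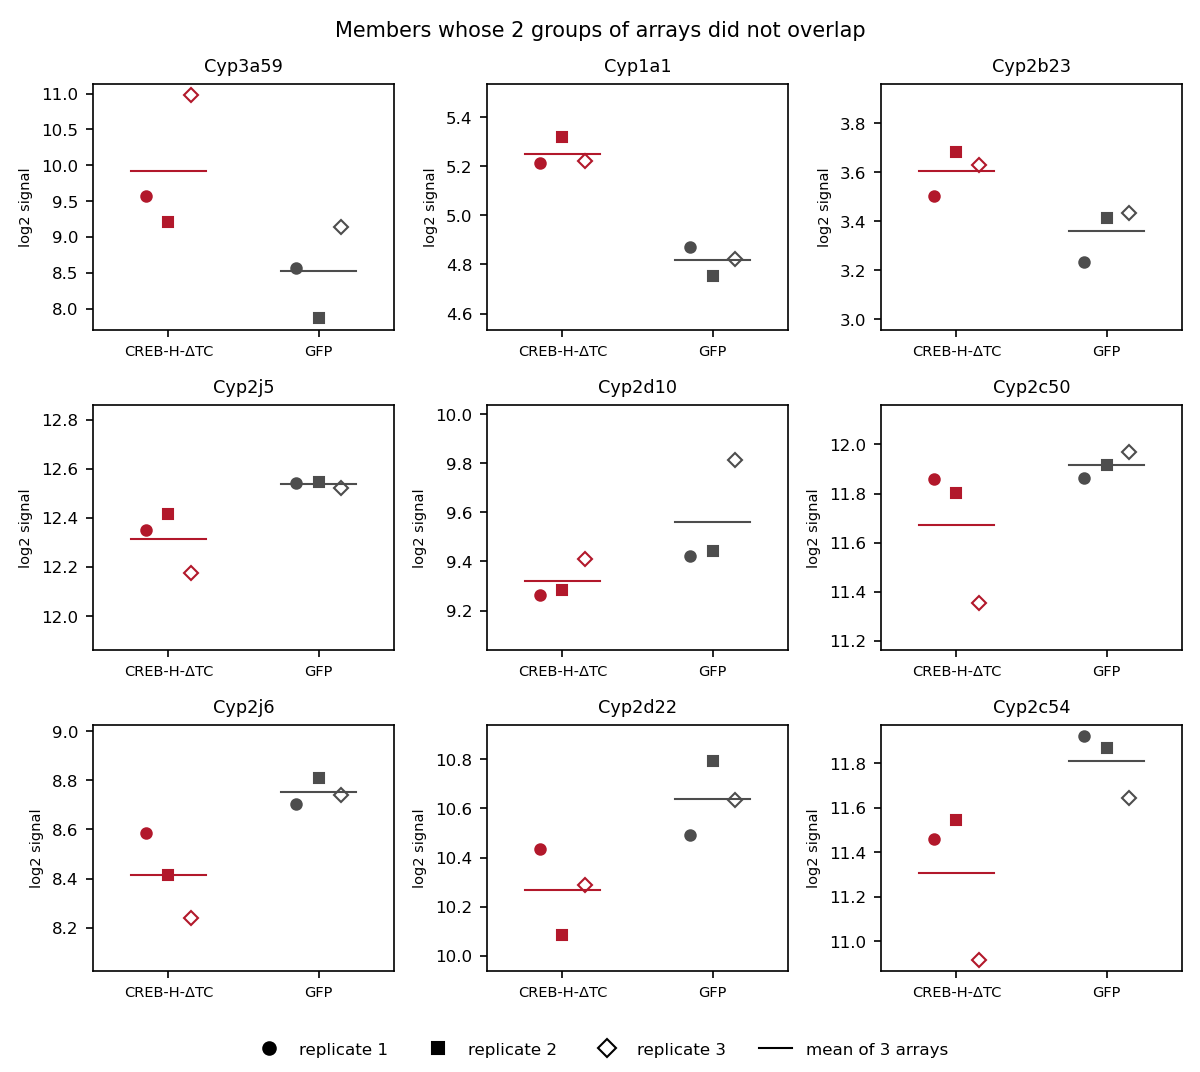
Log2 signal on each array for the 9 members whose groups did not overlap, AAV-CREB-H-ΔTC left and AAV-GFP right, with lines at the group means. Filled circles and squares are replicates 1 and 2, open diamonds replicate 3; each panel has its own axis, and the group means differ most for Cyp3a59.

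The Cyp1 genes answer the aryl hydrocarbon receptor. Cyp1a1, which oxidises polycyclic aromatic hydrocarbons, had 5.21, 5.32 and 5.22 in AAV-CREB-H-ΔTC livers, against 4.87, 4.75 and 4.82 in AAV-GFP livers. All 3 livers with CREB-H-ΔTC lay above all 3 with GFP, and the spread within each group was small. Its difference was 0.44 (SE 0.10, 95% interval 0.20 to 0.67), with 0.40 within replicate 3 and 0.45 within replicates 1 and 2. Cyp1a2, a main hepatic enzyme for caffeine and aromatic amines, had 11.89, 11.86 and 11.48 in AAV-CREB-H-ΔTC livers, against 11.85, 12.14 and 12.01 in AAV-GFP livers. The groups overlapped, and the difference of -0.26 (SE 0.15) was -0.53 within replicate 3 and -0.12 within replicates 1 and 2. For Cyp1b1, an oestrogen hydroxylase found mainly outside the liver, the difference was -0.06 (SE 0.12; -0.02 within replicate 3 and -0.08 within replicates 1 and 2).

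The Cyp1a1 promoter is shown because Cyp1a1 had the lowest p of the members. It lies at chr9:57697363-57697662 on the plus strand (RefSeq, GRCm38.p6), and capitals mark the only GCGTG, the core letters of the aryl hydrocarbon receptor's site.
Cyp1a1: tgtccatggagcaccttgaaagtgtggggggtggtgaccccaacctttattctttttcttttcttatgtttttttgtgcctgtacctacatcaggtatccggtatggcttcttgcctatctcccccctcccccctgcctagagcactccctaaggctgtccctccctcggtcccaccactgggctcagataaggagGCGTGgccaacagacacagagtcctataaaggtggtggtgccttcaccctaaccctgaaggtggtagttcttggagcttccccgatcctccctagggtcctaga
Searched on both strands, GCGTG was present in 9 of the 49 members with a promoter in the reference table (18.4%), and in 32.5% of 27025 promoters. In the Cyp1a1 promoter the capitals begin at base -54 from the start site. The core CCACG of the CREB-H and ATF6 box, read on the opposite strand, begins at base -53 and so overlaps them. These matches only describe the letters in this window, and the capitals are not shown to be a site of the aryl hydrocarbon receptor. Binding of any factor to them was not tested.

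All 4 Cyp2a genes, which hydroxylate steroids, coumarin and bile acids, were lower in AAV-CREB-H-ΔTC livers over all arrays, with a median of -0.35, and none passed. That median was -1.19 within replicate 3 and 0.06 within replicates 1 and 2, where 2 were higher and 2 lower. Cyp2a5, the coumarin hydroxylase, had 7.92, 8.14 and 5.83 in AAV-CREB-H-ΔTC livers, against 8.81, 8.14 and 7.50 in AAV-GFP livers. Its groups overlapped and the replicate 3 array was the lowest of each. The difference was -0.85 (SE 0.64), with -1.67 within replicate 3 and -0.44 within replicates 1 and 2. It was -0.12 without AAV-CREB-H-ΔTC replicate 3. Cyp2a4, a testosterone hydroxylase, had 12.26, 12.44 and 8.60 in AAV-CREB-H-ΔTC livers, against 12.21, 12.04 and 9.76 in AAV-GFP livers. Replicates 1 and 2 of the groups lay close together (difference 0.22), the replicate 3 arrays differed by -1.16, and the difference over all arrays was -0.24 (SE 1.14). Cyp2a12, which acts on bile acids, differed by -0.47 (SE 0.31; -1.21 and -0.09), and Cyp2a22 by -0.08 (SE 0.68; -0.87 and 0.31).

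Cyp2b genes are the classic targets of CAR. Cyp2b9, Cyp2b10 and Cyp2b13 varied widely between arrays, and Cyp2b19 and Cyp2b23 did not. However, Cyp2b23 (3.23 to 3.68) lay below the lower quartile of all probe sets (3.75 to 3.80) on every array. Cyp2b19 lay below it on every array except AAV-GFP replicate 3. At such levels a steady signal or a small difference says little about either gene. Cyp2b10, the main phenobarbital-induced form, had 10.05, 10.53 and 6.85 in AAV-CREB-H-ΔTC livers, against 10.40, 10.07 and 4.72 in AAV-GFP livers. Its difference of 0.75 (SE 1.67) came to 2.13 within replicate 3 and 0.06 within replicates 1 and 2. Cyp2b9, known as a female-predominant form in mouse liver, had 12.48, 12.59 and 3.99 in AAV-CREB-H-ΔTC livers, against 12.63, 12.54 and 7.00 in AAV-GFP livers. The 4 arrays of replicates 1 and 2 lay within a narrow range, with a difference of -0.05, whereas the 2 replicate 3 arrays differed by -3.00. Over all arrays the difference was -1.04 (SE 2.61). Cyp2b13, its close neighbour in sequence, had 11.10, 10.79 and 3.32 in AAV-CREB-H-ΔTC livers, against 11.81, 11.46 and 3.13 in AAV-GFP livers. Here the replicate 3 arrays were both low (difference 0.19), below the lower quartile of all probe sets on those arrays (3.77 and 3.79), where a difference between the viruses could hardly be seen. Replicates 1 and 2 differed by -0.70, and all arrays by -0.40 (SE 2.92). Cyp2b23 was higher without overlap by 0.25 (SE 0.11; 0.20 within replicate 3 and 0.27 within replicates 1 and 2), and Cyp2b19 differed by -0.25 (SE 0.13; -0.20 and -0.27).

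Cyp2c genes make signalling epoxides from arachidonic acid and oxidise many drugs. Over all arrays 3 of 15 were higher and 12 lower in AAV-CREB-H-ΔTC livers, with a median of -0.15, and none passed. Within replicate 3 the median was -0.23, and within replicates 1 and 2 it was 0.04, with 9 higher and 6 lower. Cyp2c54, an arachidonic acid epoxygenase, had 11.46, 11.55 and 10.92 in AAV-CREB-H-ΔTC livers, against 11.92, 11.87 and 11.64 in AAV-GFP livers. Every CREB-H-ΔTC array lay below every GFP array, and the difference was -0.50 (SE 0.19, adjusted p = 0.695 by limma), with -0.73 within replicate 3 and -0.39 within replicates 1 and 2. It was -0.31 without AAV-CREB-H-ΔTC replicate 3. Its relative Cyp2c50 had 11.86, 11.80 and 11.35 in AAV-CREB-H-ΔTC livers, against 11.86, 11.92 and 11.97 in AAV-GFP livers. That separation rested largely on replicate 3, with -0.62 there, -0.06 within replicates 1 and 2 and -0.24 (SE 0.15) over all arrays. Cyp2c29 differed by 0.04 (SE 0.20; -0.42 within replicate 3 and 0.27 within replicates 1 and 2). Cyp2c37 was the member of this subfamily with the highest difference, 0.36 (SE 0.31; 0.38 and 0.35 in the same order). Cyp2c70, which makes muricholic acids in mice, differed by -0.28 (SE 0.50; -0.91 and 0.04). Cyp2c38 ran the other way, with 1.22 within replicate 3, -0.83 within replicates 1 and 2 and -0.15 (SE 0.51) over all arrays. Cyp2c55 and Cyp2c23 differed by -1.27 and -1.10 within replicate 3, and by 0.35 and 0.15 within replicates 1 and 2. Over all arrays their differences were -0.19 (SE 0.72) and -0.27 (SE 0.32). A further, dimmer probe set of Cyp2c55 differed by 0.13 within replicate 3. Differences of the remaining Cyp2c members lay between -0.29 (Cyp2c39; 0.47 within replicate 3 and -0.66 within replicates 1 and 2) and 0.12 (Cyp2c68; 0.19 and 0.08).

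Of the 10 Cyp2d genes, relatives of the human drug-metabolising CYP2D6, 3 were higher and 7 lower in AAV-CREB-H-ΔTC livers, with a median of -0.15 (-0.32 within replicate 3 and -0.14 within replicates 1 and 2). Cyp2d22 had 10.43, 10.08 and 10.29 in AAV-CREB-H-ΔTC livers, against 10.49, 10.79 and 10.63 in AAV-GFP livers. Its arrays did not overlap, and the difference was -0.37 (SE 0.14, adjusted p = 0.693 by limma). It was -0.35 within replicate 3 and -0.39 within replicates 1 and 2. The last value averages unlike pairs, -0.06 in replicate 1 and -0.71 in replicate 2. Cyp2d10 had 9.26, 9.28 and 9.41 in AAV-CREB-H-ΔTC livers, against 9.42, 9.44 and 9.81 in AAV-GFP livers. The lowest GFP array exceeded the highest CREB-H-ΔTC array only narrowly, and the difference was -0.24 (SE 0.14; -0.40 and -0.16). Cyp2d9, a steroid hydroxylase known as male-predominant in mouse liver, had 5.66, 5.78 and 9.91 in AAV-CREB-H-ΔTC livers, against 6.12, 6.80 and 11.19 in AAV-GFP livers. It was lower in each numbered pair, with differences of -1.28 within replicate 3 and -0.74 within replicates 1 and 2, while over all arrays the difference of -0.92 had an SE of 1.62. Cyp2d40 differed by 0.43 (SE 0.24; 0.27 and 0.51), and the remaining members lay between -0.35 (Cyp2d11; -0.30 and -0.38) and 0.05 (Cyp2d12; 0.07 and 0.03).

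Cyp2e1, which oxidises ethanol and paracetamol, had 13.64, 13.54 and 13.71 in AAV-CREB-H-ΔTC livers, against 13.57, 13.63 and 13.62 in AAV-GFP livers. The groups overlapped throughout, and the 95% interval of the difference of 0.02 ran from -0.21 to 0.25 (0.09 within replicate 3 and -0.01 within replicates 1 and 2). Cyp2f2, which activates naphthalene, differed by 0.03 (SE 0.16; -0.08 and 0.08). Cyp2g1 differed by -0.37 (SE 0.39; -0.80 and -0.15).

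Cyp2j genes also make epoxides of arachidonic acid. Of 7, 4 were higher and 3 lower in AAV-CREB-H-ΔTC livers, with a median of 0.04 (-0.30 within replicate 3 and 0.00 within replicates 1 and 2). Cyp2j6 had 8.59, 8.41 and 8.24 in AAV-CREB-H-ΔTC livers, against 8.70, 8.81 and 8.74 in AAV-GFP livers. All its CREB-H-ΔTC arrays were the lower ones, with a difference of -0.34 (SE 0.12, adjusted p = 0.693 by limma; -0.50 within replicate 3 and -0.26 within replicates 1 and 2). Cyp2j5, an epoxygenase of liver and kidney, had 12.35, 12.42 and 12.18 in AAV-CREB-H-ΔTC livers, against 12.54, 12.55 and 12.52 in AAV-GFP livers. It too was separated, with a difference of -0.22 (SE 0.11; -0.35 and -0.16). Cyp2j8 and Cyp2j9 differed by 0.46 (SE 0.22; 0.20 and 0.59) and 0.36 (SE 0.34; -0.30 and 0.70). The remaining members lay between -0.44 (Cyp2j11; -1.18 and -0.08) and 0.13 (Cyp2j13; 0.20 and 0.10).

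Cyp2r1, a vitamin D hydroxylase of the liver, had 7.89, 7.98 and 7.93 in AAV-CREB-H-ΔTC livers, against 7.14, 6.88 and 8.16 in AAV-GFP livers. Replicates 1 and 2 were separated by 0.93, but the GFP array of replicate 3 was the highest of all 6, so that the difference was -0.23 there and 0.54 (SE 0.31) over all arrays. Cyp2u1, a fatty acid hydroxylase, had 5.83, 5.52 and 7.90 in AAV-CREB-H-ΔTC livers, against 5.19, 5.56 and 9.36 in AAV-GFP livers. It was high on both replicate 3 arrays, with a difference of -1.47 there, 0.30 within replicates 1 and 2 and -0.29 (SE 1.17) over all arrays. Cyp2s1 differed by -0.01 (SE 0.11; 0.15 and -0.08), Cyp2t4 by 0.12 (SE 0.18; 0.54 and -0.09) and Cyp2w1 by 0.04 (SE 0.12; -0.02 and 0.07).

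In Cyp3a, the subfamily of the main drug-oxidising enzymes and the best-known PXR targets, 4 of 7 genes were higher and 3 lower in AAV-CREB-H-ΔTC livers. The median was 0.19 over all arrays, 0.04 within replicate 3 and 0.26 within replicates 1 and 2. The 0.19 and 0.26 are the values of Cyp3a57 (2.18 to 2.92), which lay below the lower quartile of all probe sets on every array. The median ranged from -0.03, without AAV-CREB-H-ΔTC replicate 2, to 0.63, without AAV-GFP replicate 1. It was 0.44 without AAV-CREB-H-ΔTC replicate 3 and 0.43 without AAV-GFP replicate 2. The bright probe sets shared by Cyp3a41a, Cyp3a41b, Cyp3a11 and Cyp3a44 (means 13.10 and 13.03) are not in it. They differed by -0.24 (SE 0.20; -0.16 and -0.27) and -0.28 (SE 0.23; -0.23 and -0.31). Cyp3a59 had 9.57, 9.20 and 10.98 in AAV-CREB-H-ΔTC livers, against 8.56, 7.86 and 9.13 in AAV-GFP livers. Each CREB-H-ΔTC array lay above each GFP array, the highest being replicate 3 in both groups. Its difference of 1.40 (SE 0.51, adjusted p = 0.693 by limma), the largest of the 59, corresponds to 2.63-fold with a 95% interval of 1.14 to 6.08, and was 1.84 within replicate 3 and 1.17 within replicates 1 and 2. Without AAV-CREB-H-ΔTC replicate 3 it was 0.86. Cyp3a25 had 10.05, 10.61 and 11.62 in AAV-CREB-H-ΔTC livers, against 9.77, 9.02 and 10.88 in AAV-GFP livers. The groups overlapped, since the GFP array of replicate 3 exceeded 2 of the CREB-H-ΔTC arrays. Its difference was 0.87 (SE 0.55; 0.75 within replicate 3 and 0.93 within replicates 1 and 2), and it was 0.43 without AAV-GFP replicate 2 and 1.36 without AAV-GFP replicate 3.

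Cyp3a11, regarded as the main adult hepatic form, had 12.20, 12.12 and 12.25 in AAV-CREB-H-ΔTC livers, against 12.29, 11.98 and 12.49 in AAV-GFP livers. No separation was seen, with a difference of -0.07 (SE 0.15; -0.25 within replicate 3 and 0.02 within replicates 1 and 2). Cyp3a13 differed by 0.49 (SE 0.45; 0.04 and 0.71), Cyp3a44 by -0.13 (SE 0.55; -0.02 and -0.18) and Cyp3a57 by 0.19 (SE 0.20; 0.06 and 0.26). Cyp3a16, listed among the female-biased family members, had 10.80, 9.37 and 2.66 in AAV-CREB-H-ΔTC livers, against 10.85, 10.69 and 3.28 in AAV-GFP livers. Both replicate 3 arrays were low, below the lower quartile of all probe sets, and the difference was -0.63 there, -0.68 within replicates 1 and 2 and -0.66 (SE 2.71) over all arrays.

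The promoters of Cyp3a59 and Cyp3a25 are printed because these genes, both on chromosome 5, gave the 2 largest differences above 0 among the Cyp3a members and their promoters are near-identical. They lie at chr5:146079008-146079307 on the plus strand and chr5:146009569-146009868 on the minus strand (RefSeq, GRCm38.p6). Capitals mark the bases that differ between the pair, 11 of the 299 that align, an identity of 96.3%.
Cyp3a59: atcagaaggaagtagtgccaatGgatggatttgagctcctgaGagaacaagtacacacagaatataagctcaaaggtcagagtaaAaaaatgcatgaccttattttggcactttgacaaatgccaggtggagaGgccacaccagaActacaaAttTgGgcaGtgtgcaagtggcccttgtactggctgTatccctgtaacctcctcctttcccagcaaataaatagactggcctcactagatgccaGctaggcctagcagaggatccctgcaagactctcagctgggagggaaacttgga
Cyp3a25: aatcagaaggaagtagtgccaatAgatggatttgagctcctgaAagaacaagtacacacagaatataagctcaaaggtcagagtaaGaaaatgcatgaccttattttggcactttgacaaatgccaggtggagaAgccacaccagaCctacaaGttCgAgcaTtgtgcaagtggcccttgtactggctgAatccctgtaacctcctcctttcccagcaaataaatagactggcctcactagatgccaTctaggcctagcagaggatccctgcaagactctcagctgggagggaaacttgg

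Whether replicate 3 departed from replicates 1 and 2 in its difference between the groups was tested in a model of 4 means, which leaves 2 residual degrees of freedom. No member passed the adjusted threshold, nor did any probe set (0%), while 18 of 59 members (30.5%) had an unadjusted p under 0.05, beside 6.9% of all probe sets. The lowest adjusted p was 0.251, for Cyp2b9, whose departure was -2.95 (SE 0.21). Cyp2b10 departed upward by 2.07 (SE 0.38), and downward departures were -1.77 (SE 0.33) for Cyp2u1, -1.39 (SE 0.24) for Cyp2a4, -1.13 (SE 0.22) for Cyp2c53-ps and -1.12 (SE 0.21) for Cyp2a12. The pseudogene Cyp2c53-ps (2.11 to 3.07) lay below the lower quartile of all probe sets on every array, so its departure says little. These departures rest on 1 array per group in replicate 3, which adds nothing to the residual spread. Their SEs and p-values take that spread from replicates 1 and 2 and from limma's sharing of variance across probe sets. They do not measure the spread between replicate 3 livers. In simulated data this model recovered none of the changes put in. The absence of adjusted calls therefore carries no information on whether the replicates acted alike.

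**Figure D3:**
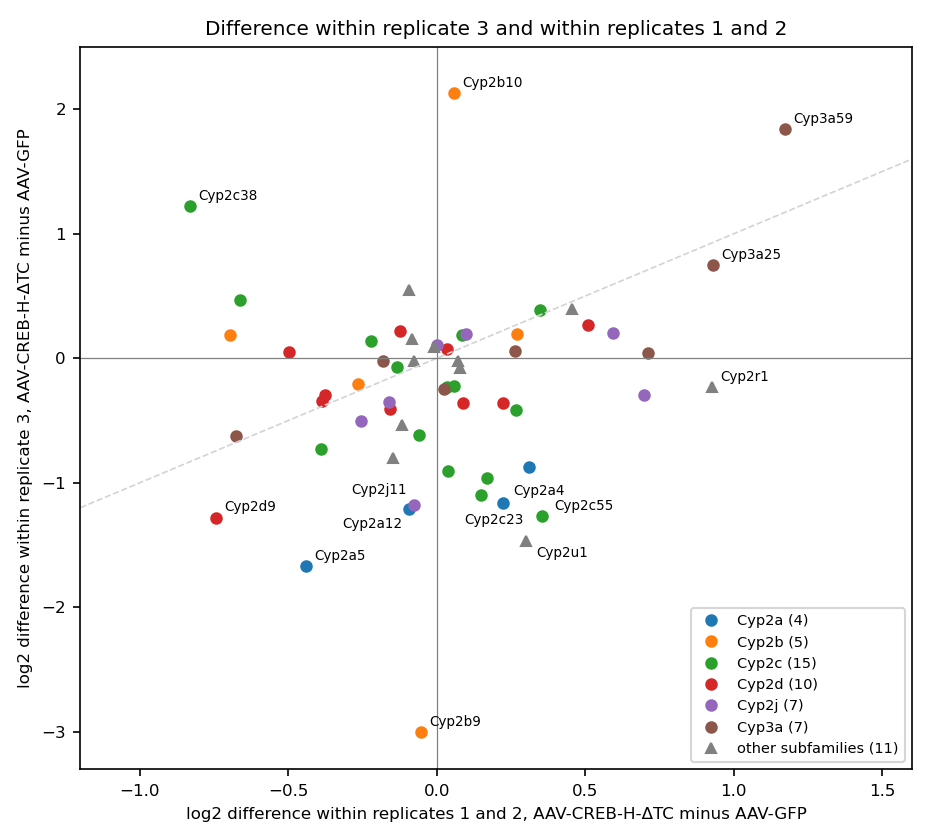
Difference between AAV-CREB-H-ΔTC and AAV-GFP in log2 signal within replicate 3 (y axis) and within replicates 1 and 2 (x axis), 1 point per member, with equal differences on the dashed line. Cyp3a59 and Cyp3a25 lie to the upper right, and Cyp2b9 and Cyp2b10 lie far from the line with replicates 1 and 2 near 0.

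The level of several members, whichever virus was given, differed between the replicate 3 arrays and those of replicates 1 and 2. With group in the model, 5 members were lower on replicate 3 at an adjusted p under 0.05 in limma (8.47%, beside 0.0774% of all probe sets) and 1 was higher (1.69%, beside 0.0605%). Cyp2b13 fell by 8.07 (adjusted p = 0.000285 by limma) and Cyp3a16 fell by 7.46 (adjusted p = 0.00427 by limma). Cyp2b9 fell by 7.07 (adjusted p = 0.0356 by limma). Cyp2c69 fell by 3.40 (adjusted p = 0.00758 by limma) and Cyp2a4 fell by 3.06 (adjusted p = 0.048 by limma). Cyp2c69 had 11.56, 12.22 and 8.53 in AAV-CREB-H-ΔTC livers, against 12.14, 11.91 and 8.60 in AAV-GFP livers, so that replicate 3 was low by much the same amount in both. For Cyp2b13 and Cyp3a16 both replicate 3 signals lay below the lower quartile of all probe sets, and background was not examined, so the sizes of their falls, and that of Cyp2b9 (3.99 in 1 of the 2), may be understated. Cyp2d9 rose by 4.46 (adjusted p = 0.00443 by limma). Beyond these, Cyp2b10 differed by -4.48 (adjusted p = 0.0504 by limma) and Cyp2u1 by 3.10 (adjusted p = 0.0886 by limma), and neither passed. Without overlap, 17 members were lower on replicate 3 (28.8%, beside 8.79%) and 9 higher (15.3%, beside 10.2%). All 8 measured members listed as female-biased were among the 17, and the 5 that passed as lower were among these 8. Cyp2d9 was the only member listed as male-biased. These lists were chosen with earlier results of these data known, and the part of sex was not tested. Leaving out 1 array at a time gave 3 to 5 calls, with 3 without AAV-GFP replicate 1, 2 or 3, and Cyp2b13 passed in every case. Cyp2a4 and Cyp2b9 no longer passed without replicate 1 or replicate 2 of either group, nor did Cyp2c69 without any 1 of the AAV-GFP arrays. Without AAV-CREB-H-ΔTC replicate 3, Cyp2a4, Cyp2c69 and Cyp3a16 were lost, and without AAV-GFP replicate 3, Cyp2c69, Cyp2d9 and Cyp3a16.

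**Figure D4:**
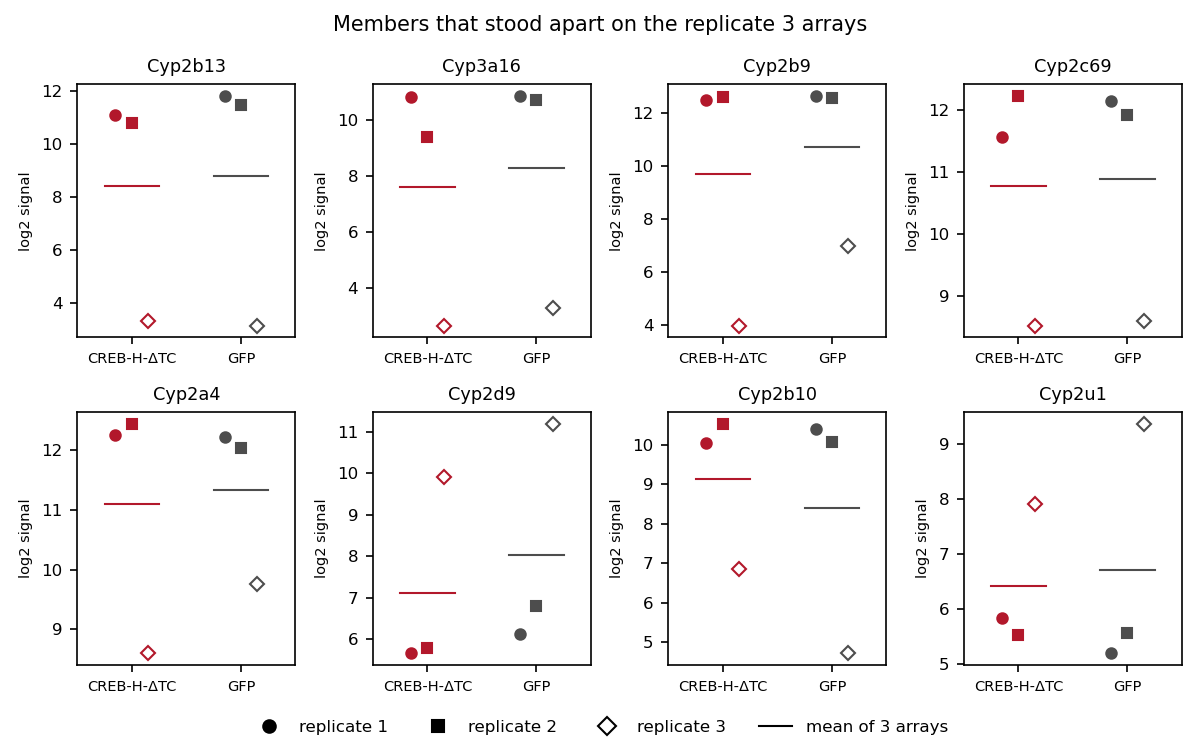
Log2 signal on each array for the 6 members that passed the test of replicate 3 against replicates 1 and 2, and for Cyp2b10 and Cyp2u1, which did not. AAV-CREB-H-ΔTC is left and AAV-GFP right, lines are group means, and the open diamonds of replicate 3 lie below the filled symbols in 6 panels and above them for Cyp2d9 and Cyp2u1.

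The promoters of Cyp2b9 and Cyp2b13 are shown because both genes fell on the replicate 3 arrays. They lie at chr7:26173159-26173458 and chr7:26061245-26061544, both on the plus strand (RefSeq, GRCm38.p6). Capitals mark the 2 bases of 300 that differ, an identity of 99.3%.
Cyp2b9: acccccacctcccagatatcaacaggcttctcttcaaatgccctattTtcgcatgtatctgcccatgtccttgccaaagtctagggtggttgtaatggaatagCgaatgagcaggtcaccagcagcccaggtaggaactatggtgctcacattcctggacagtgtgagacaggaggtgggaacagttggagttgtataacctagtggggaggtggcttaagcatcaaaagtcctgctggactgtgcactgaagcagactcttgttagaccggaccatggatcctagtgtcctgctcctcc
Cyp2b13: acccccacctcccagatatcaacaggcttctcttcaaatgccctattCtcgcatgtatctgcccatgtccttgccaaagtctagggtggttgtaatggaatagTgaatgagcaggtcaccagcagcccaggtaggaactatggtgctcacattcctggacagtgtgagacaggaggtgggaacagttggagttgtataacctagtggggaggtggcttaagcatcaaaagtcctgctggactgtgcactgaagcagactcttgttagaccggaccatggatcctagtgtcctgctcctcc

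Among 7 motifs searched on both strands, AAAGTCC, a core of sites of the HNF4A type, was picked out after the promoter sequences had been read. It was present in 12 of 49 members (24.5%) and in 4.25% of 27025 promoters. It stood in 9 of the 16 promoters of members lower on replicate 3 without overlap and in 0 of the 7 of members higher there. The TATA box TATAAA also stood in 9 of the 16, and in 2 of the 7. The nuclear receptor half-site AGGTCA stood in 7 of the 16 and 2 of the 7. Each other motif was in at most 2 of the 16. These classes of members come from the same arrays, and the split was not tested. Near-identical promoters such as the pair above are not independent, and nothing follows from the letters about binding. Besides GCGTG, the cyclic AMP response half-site TGACG was in 4.08% of members and 21.0% of all promoters. The core CCACG of the CREB-H and ATF6 box was in 14.3% of members and 32.7% of all promoters. The nuclear receptor half-site AGGTCA was in 36.7% of members and 16.0% of all promoters, and the TATA box TATAAA in 49.0% and 14.2%. The STAT core TTCNNNGAA was in 4.08% of members and 8.47% of all promoters. GCGTG and CCACG can overlap on opposite strands. The Cyp3a16 promoter, at chr5:145469674-145469973 on the minus strand, shows AAAGTCC in capitals.
Cyp3a16: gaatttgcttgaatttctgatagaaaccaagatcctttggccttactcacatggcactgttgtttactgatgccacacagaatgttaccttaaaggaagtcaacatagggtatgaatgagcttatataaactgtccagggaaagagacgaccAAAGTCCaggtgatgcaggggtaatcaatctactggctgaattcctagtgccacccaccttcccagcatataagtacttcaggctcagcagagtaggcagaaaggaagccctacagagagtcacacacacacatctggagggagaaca

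None of 18 measured transcriptional regulators of P450 genes passed the group test, with 12 higher and 6 lower in AAV-CREB-H-ΔTC livers. Without overlap 2 were higher (beside 5.23% of all probe sets) and 2 lower (beside 7.1%). The gene of CAR, Nr1i3, had 10.32, 10.30 and 9.47 in AAV-CREB-H-ΔTC livers, against 10.41, 10.40 and 10.92 in AAV-GFP livers. Its arrays did not overlap, but the difference of -0.55 (SE 0.27) was -1.45 within replicate 3 and -0.10 within replicates 1 and 2. The gene of PXR, Nr1i2, differed by 0.01 (SE 0.30; -0.05 and 0.04) and Ahr by 0.08 (SE 0.14; -0.01 and 0.12). Ppara, a receptor for fatty acids, was higher without overlap by 0.63 (SE 0.19; 0.44 and 0.72), and the liver factor Cebpa by 0.50 (SE 0.20; 0.00 and 0.75). Nr1h4 was the other regulator lower without overlap, with a difference of -0.28 (SE 0.14; -0.69 and -0.08). Dbp had the largest difference of the 18, 0.82 (SE 0.43; -0.63 and 1.54), and its groups overlapped.

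Haem enzymes and electron partners gave 4 higher and 9 lower of 13 measured, and none passed. Without overlap 1 was higher (beside 5.23% of all probe sets) and 2 were lower (beside 7.1%). Fech, which inserts iron to make haem, was higher without overlap by 0.47 (SE 0.13; 0.28 within replicate 3 and 0.56 within replicates 1 and 2). Cpox and Uros, earlier enzymes of the same pathway, were lower without overlap, with differences of -0.42 (SE 0.12; -0.58 and -0.35) and -0.27 (SE 0.11; -0.25 and -0.28). Alas1, whose groups overlapped, differed by 0.45 (SE 0.20; -0.15 and 0.75). Of genes driven by the same receptors outside the P450 families, 2 of 4 aryl hydrocarbon receptor targets and 4 of 9 CAR and PXR targets were higher, and none passed. Nqo1, a quinone reductase and an aryl hydrocarbon receptor target, had 6.92, 7.23 and 7.00 in AAV-CREB-H-ΔTC livers, against 6.52, 6.34 and 6.48 in AAV-GFP livers. It was higher without overlap by 0.61 (SE 0.12, with 0.53 and 0.65). The groups overlapped for the rest of that list. Tiparp differed by 0.10 (SE 0.19), Ahrr by -0.05 (SE 0.10) and Aldh3a1 by -0.01 (SE 0.12). Their differences within replicate 3 were 0.12, -0.06 and 0.22, and within replicates 1 and 2 they were 0.09, -0.04 and -0.12. Aldh1a1, a retinal dehydrogenase, is in the list of CAR and PXR targets. It had 11.99, 12.38 and 11.61 in AAV-CREB-H-ΔTC livers, against 12.73, 12.72 and 12.82 in AAV-GFP livers. All GFP arrays were higher than all CREB-H-ΔTC arrays, and the difference was -0.76 (SE 0.19; -1.21 and -0.54). Ces2a, at -0.32 (SE 0.18; -0.76 and -0.11), was the only other of the 9 without overlap. The groups overlapped for the genes with the largest differences each way. These were Slco1a4 at 0.81 (SE 0.45; 2.12 and 0.15) and Gadd45b at -1.22 (SE 0.72; -0.40 and -1.63). In the list of growth hormone signalling and sex-dependent regulators 5 of 10 were higher, and none passed. Without overlap 2 were higher and 1 lower, where 12.3% of all probe sets did not overlap. Jak2, the kinase of the growth hormone receptor, was higher by 0.36 (SE 0.13, with 0.35 and 0.36). Stat5b was higher by 0.31 (SE 0.14, with 0.30 and 0.32). Igf1 was the lower one, with a difference of -0.21 (SE 0.11, with -0.33 and -0.14).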

How the data were processed

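The deposited log2 values cover 41345 probe sets on 6 arrays. The submitters' processing notes name the Transcriptome Analysis Console for the authors' processing. Version, normalization and filters were not given in the sources used here, and detection calls were not used. The files pair probe sets with symbols through GEO's platform annotation, and all 59 Entrez IDs matched RefSeq (GRCm38.p6). Where a gene had several probe sets (3 members), the one with the highest mean was used.

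All tests used limma 3.58.1 under R 4.3.3 (two-sided, Benjamini-Hochberg over all probe sets, threshold 0.05) without further normalization; the models were tested on simulated data, where the model of the replicate 3 departure recovered no change. The labels call the samples biological replicates. Members and lists were chosen with earlier results of these data known. Named genes were the brightest member and those with the 2 lowest p of each subfamily, the 8 largest differences each way between groups and between replicate 3 and the others, the 6 lowest p of the departure, fixed members, and up to 3 genes per other list. That rule named 103 genes. The non-members printed were narrowed from it after their values were seen. Members outside it (such as Cyp3a57) are named to account for their subfamily. Alas1, Aldh3a1, Dbp, Gadd45b, Igf1 and Nr1h4 are named to account for their lists.

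Whether replicate numbers pair the samples could not be settled. Deviations from the group means correlated within numbers at 0.08, 0.13 and 0.33 over all probe sets, where the first misses the limit of 0.1, and at 0.18, 0.21 and 0.46 over the brighter 50%, where all exceed it. The switch to all probe sets was made after a brighter subset had been seen. The result with the number as a block is therefore given beside the main count. Alternatives covered scaling, dim filters, variance models, array weights, probe set choice and left-out arrays. Figures used matplotlib 3.10.9.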

Additional observations from a re-analysis of the deposited data

How the results depend on the processing

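No member passed the adjusted threshold between the groups under any of the alternatives run, while the number at an unadjusted p under 0.05, 5 as reported, was 12 with the replicate number as a block, 13 with a term for replicate 3 (22.0%, beside 8.57% of all probe sets), 13 on replicates 1 and 2 alone, and 1 to 9 with 1 array left out. The count for replicate 3 against replicates 1 and 2, 6 as reported, was 10 without the dimmest 50% of probe sets, 10 with limma-trend, and 3 to 5 with 1 array left out. The Cyp2j median was -0.22 without the dimmest 25% or 50%, where fewer members are left. With 1 array left out, medians ranged from -0.0780 to 0.11 for Cyp2j, -0.0285 to 0.63 for Cyp3a, -0.80 to 0.29 for Cyp2a, -1.09 to 1.81 for Cyp2b, -0.33 to 0.12 for Cyp2c, -0.28 to -0.04 for Cyp2d and -0.14 to 0.0673 for all members. With 1 array left out, replicate 3 makes up unlike shares of the 2 groups. Its level differences therefore enter these medians and the ranges of single genes below. The Cyp3a median of 0.63 was the difference of Cyp3a16 without AAV-GFP replicate 1 (SE 3.07). The Cyp2b median of 1.81 was that of Cyp2b9 without AAV-CREB-H-ΔTC replicate 3 (SE 1.74). The replicate 3 level differences of these genes were -7.46 and -7.07. How much of each shift this accounts for was not tested.

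Signs of differences that did not pass turned for Cyp2s1 (0.0143 after quantile normalization and 0.0113 after centring) and Cyp2a22 (0.0879 with array weights). They also turned for Cyp2c29 (-0.0448 as the mean of its probe sets, where the further one had a mean signal of only 2.78). On replicates 1 and 2 alone they turned for Cyp2e1 (-0.0102), Cyp2t4 (-0.0947), Cyp2u1 (0.30), Cyp3a11 (0.0243), Cyp2a4 (0.22), Cyp2a22 (0.31) and Cyp2c53-ps (0.17). With 1 array left out, ranges crossed 0 for Cyp1b1 (-0.15 to 0.0073), Cyp2a22 (-0.49 to 0.67), Cyp2a4 (-1.03 to 1.01), Cyp2b10 (-1.09 to 1.90), Cyp2b13 (-3.24 to 2.14), Cyp2b9 (-2.90 to 1.81), Cyp2c29 (-0.11 to 0.27), Cyp2c39 (-1.06 to 0.14), Cyp2c53-ps (-0.33 to 0.00041), Cyp2c69 (-1.26 to 1.01), Cyp2d37-ps (-0.25 to 0.41), Cyp2d9 (-2.32 to 0.65), Cyp2e1 (-0.0160 to 0.0662), Cyp2f2 (-0.0679 to 0.16), Cyp2g1 (-0.62 to 0.0423), Cyp2j11 (-0.80 to 0.0043), Cyp2s1 (-0.0799 to 0.0813), Cyp2t4 (-0.0692 to 0.23), Cyp2u1 (-1.04 to 1.04), Cyp2w1 (-0.0410 to 0.10), Cyp3a11 (-0.20 to 0.0538), Cyp3a16 (-3.15 to 1.82) and Nr1i2 (-0.23 to 0.27). Of 20 other named members, which kept their sign, 14 moved by over 1.5 times with 1 array left out: Cyp1a2 (-0.33 to -0.12), Cyp2a12 (-0.69 to -0.0792), Cyp2a5 (-1.27 to -0.12), Cyp2c50 (-0.34 to -0.0857), Cyp2c54 (-0.62 to -0.31), Cyp2d11 (-0.59 to -0.12), Cyp2d13 (-0.49 to -0.0816), Cyp2d40 (0.27 to 0.65), Cyp2j8 (0.25 to 0.68), Cyp2j9 (0.0674 to 0.77), Cyp2r1 (0.29 to 0.92), Cyp3a13 (0.18 to 0.99), Cyp3a25 (0.43 to 1.36) and Cyp3a59 (0.86 to 1.75). Scaling moved the median of all probe sets from -0.01 to at most 0.0047. Signal over background was not examined, so differences of members dim on any array may be understated.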
